A study of Mus musculus with 12 samples.

Results

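The genes described here are the 46 of 15002 in the mRNA tables whose level was lower after interferon gamma (IFN-γ) with either siRNA. They were selected on these same libraries by FPKM, the number of sequenced fragments scaled to transcript length and library size: a mean of at least 1 in each untreated group, a treated mean of at most 0.75 of the untreated mean with each siRNA, and every treated library below every untreated library of that siRNA. Edn1, the gene of endothelin 1, was left out of the set by name. Its treated mean was 0.529 of the untreated mean in siR_Ctrl cells and 0.995 in siR_Nostrill cells, so it also missed the limit in the latter. Of the 10343 genes past the floor in both untreated groups, 215 met the limits in siR_Ctrl cells and 604 in siR_Nostrill cells, and 302 genes were higher by the mirrored rule.

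All 12 libraries came from IEC4.1, a mouse cell line labelled intestinal epithelial, with 3 libraries in each of 4 groups. The siR_Ctrl groups carried the genotype label WT and received a scrambled siRNA, and the siR_Nostrill groups carried the label Nostril knockdown and received a pool of 3 siRNAs against the long noncoding RNA Nostrill (spelled Nostril in the labels). One group of each kind was left without cytokine and the other was given IFN-γ, at 1 ng/ml for 4 h by the study's methods, while the labels give 24 h for every sample. All cells were thus transfected, and the siRNA pool is compared only with the scrambled control. Nostrill was not analysed here, so the knockdown was not checked. Irf1, an early target of IFN-γ, was used as a check of the treatment labels and had a mean of 50.9 FPKM in siR_Ctrl and 57.3 in siR_Nostrill libraries without IFN-γ, against 578 and 543 with it.

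IFN-γ binds a receptor of paired chains whose JAK kinases activate a transcription factor in the cytoplasm. The activated factor enters the nucleus, binds gamma-activated sites and switches on genes such as Irf1, whose product in turn activates further interferon genes. The same cytokine also lowers many genes in the cells it acts on, and those are the subject here.

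The label was compared with a list of cell type markers. Of 16 epithelial markers 9 were measured, and 8 of those 9 stayed under 1 FPKM in all 12 libraries. Krt8 and Krt18, keratins of simple epithelia, had means of 0.20 and 0.05 FPKM in siR_Ctrl cells, Vil1 and Cdx2, a brush border protein and an intestinal transcription factor, were at 0.01 and 0.00, and Krt19 alone was above 1, at 1.85. All 12 fibroblast and mesenchymal markers were measured and 2 of them, Lum and Thy1, stayed under 1 FPKM, while Vim had a mean of 1620 FPKM, Col1a1 257 and Pdgfra 17.2 in siR_Ctrl cells. The defining epithelial markers measured here were therefore nearly absent, and the cells are called by their line name below. The summed level of the mesenchymal list ranged from 2255 to 2477 FPKM in siR_Ctrl, 2607 to 2716 in siR_Ctrl with IFN-γ, 2167 to 2377 in siR_Nostrill and 2312 to 2455 in siR_Nostrill with IFN-γ. Vim made up most of that sum and had means of 1620 FPKM without and 1997 with IFN-γ in siR_Ctrl cells, while 8 of the 10 markers tested had a log2 fold change below 0 there (median -0.10), against 4 of 10 in siR_Nostrill cells (median 0.02), and 0 were called with either siRNA. Pdgfra went from 17.2 to 11.3 FPKM in siR_Ctrl and from 14.2 to 13.3 in siR_Nostrill cells, Pdgfrb from 16.5 to 12.1 and from 16.0 to 13.0, and Col3a1 from 75.3 to 55.1 and from 70.8 to 52.8. Twist1 rose with both siRNAs, from 31.5 to 36.3 and from 33.4 to 35.8. Zeb1 went from 9.25 to 8.49 and from 7.04 to 10.2, and Dcn from 17.55 to 15.5 and from 15.8 to 19.5. Of 9 endothelial markers 3 were measured, all under 1 FPKM, and of 12 leukocyte markers 6 were, of which Cd68, at 1.33 FPKM in siR_Ctrl cells, was the only one above 1. The sum of the epithelial list ranged from 1.40 to 3.32 FPKM over all libraries. The part of cell composition in the values below was not tested, and in bulk RNA fewer cells of a type and less RNA per cell cannot be told apart.

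Sequences upstream of the RefSeq start (build GRCm38.p6) were available for 34 of the 46 genes, with 42 starts. The 250 bases before each start were searched on both strands for 8 short motifs, namely the gamma-activated site TTCNNNGAA, the core GAAANNGAA of the interferon-stimulated response element, the AP-1 site TGANTCA, the cyclic AMP response element TGACGTCA, the TEAD site GGAATG, the E-box CACGTG, the GC box GGGCGG and the TATA box TATAAA. 4 are shown here, those of Aqp5 and Rapgef3 because these genes had the lowest geometric mean of both ratios among members with a mean of more than 200 reads per library, that of Epha2 because it is the member with most reads, and the second Medag start because it holds the set's sole gamma-activated site. Capitals mark a match to any of the 8 motifs, and each sequence runs 5′ to 3′ toward the start.
Aqp5, chr15:99590778-99591027, plus strand: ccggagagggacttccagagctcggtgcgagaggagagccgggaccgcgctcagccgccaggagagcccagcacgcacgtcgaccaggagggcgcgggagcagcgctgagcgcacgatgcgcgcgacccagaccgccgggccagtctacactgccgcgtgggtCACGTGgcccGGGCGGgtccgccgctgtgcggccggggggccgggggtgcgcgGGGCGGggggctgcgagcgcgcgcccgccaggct
Rapgef3, chr15:97767667-97767916, minus strand: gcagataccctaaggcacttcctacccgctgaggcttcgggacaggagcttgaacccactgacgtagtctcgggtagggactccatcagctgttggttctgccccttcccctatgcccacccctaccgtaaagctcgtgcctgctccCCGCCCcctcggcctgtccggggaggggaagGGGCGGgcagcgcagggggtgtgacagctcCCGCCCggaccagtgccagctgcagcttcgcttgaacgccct
Epha2, chr4:141300971-141301220, plus strand: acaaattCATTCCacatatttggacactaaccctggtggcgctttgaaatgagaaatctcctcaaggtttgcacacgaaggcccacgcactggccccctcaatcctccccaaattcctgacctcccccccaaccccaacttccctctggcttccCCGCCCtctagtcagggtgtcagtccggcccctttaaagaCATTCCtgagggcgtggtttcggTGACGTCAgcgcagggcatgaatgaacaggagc
Medag, chr5:149413588-149413837, plus strand: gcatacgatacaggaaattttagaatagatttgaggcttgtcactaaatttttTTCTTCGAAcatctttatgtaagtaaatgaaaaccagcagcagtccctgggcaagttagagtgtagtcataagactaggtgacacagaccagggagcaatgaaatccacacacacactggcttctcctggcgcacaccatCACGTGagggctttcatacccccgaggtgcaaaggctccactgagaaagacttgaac

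A gamma-activated site was present in 1 of the 42 member sequences (2.38%) against 7.02% of all 32851 upstream sequences of that length. The interferon response element core was in 2 (4.76% against 7.13% of all), the AP-1 site in 3 (7.14% against 6.75%) and the cyclic AMP response element in 2, Epha2 and Arl4d (4.76% against 1.55%). The GC box was in 22 (52.4% against 32.7%), the TATA box in 4 (9.52% against 12.4%), the E-box in 3 (7.14% against 6.02%) and the TEAD site in 2 (4.76% against 12.6%). The median GC content was 60.6% in the member sequences and 52.4% over all of them. These are counts of letters in a short window and no test was made of them. The sequences compared with were not limited to genes past the FPKM floor, as the members were.

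Across the members the siR_Ctrl mean without IFN-γ ran from 1.10 FPKM in Trabd2b to 105 in Twist2, with a median of 7.83 against 15.2 for all genes past the floor. Of the 46, 18 were under 5 FPKM and 10 were at 20 or more. The median over members of the log2 ratio of treated to untreated mean FPKM was -0.60 in siR_Ctrl cells and -0.61 in siR_Nostrill cells, where the rule fixed the sign. Over all 10343 genes it was -0.07 and 0.01. On the TPM scale, in which length-scaled values sum to the same total in every library, the median of all genes lay at -0.17 and 0.15 and that of the members at -0.69 and -0.46. The lower of the ratios was in siR_Ctrl cells for 20 members and in siR_Nostrill cells for 26. A treated mean at or under 0.5 of the untreated mean was found for 2 members in siR_Ctrl cells and 4 in siR_Nostrill cells. In 42 of the 46, all 6 treated libraries lay below all 6 untreated ones across siRNAs. The other 4 were Fgf7, Syt13, Mtcl1 and LOC115489528. The rule had fixed this order within each siRNA, and no such count was made over all genes, so nothing is read from it. The replicate spread of the members, as the median coefficient of variation, was 8.0% to 11.3% over the 4 groups, against 7.36% to 14.0% for all genes past the floor.

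**Figure D1:**
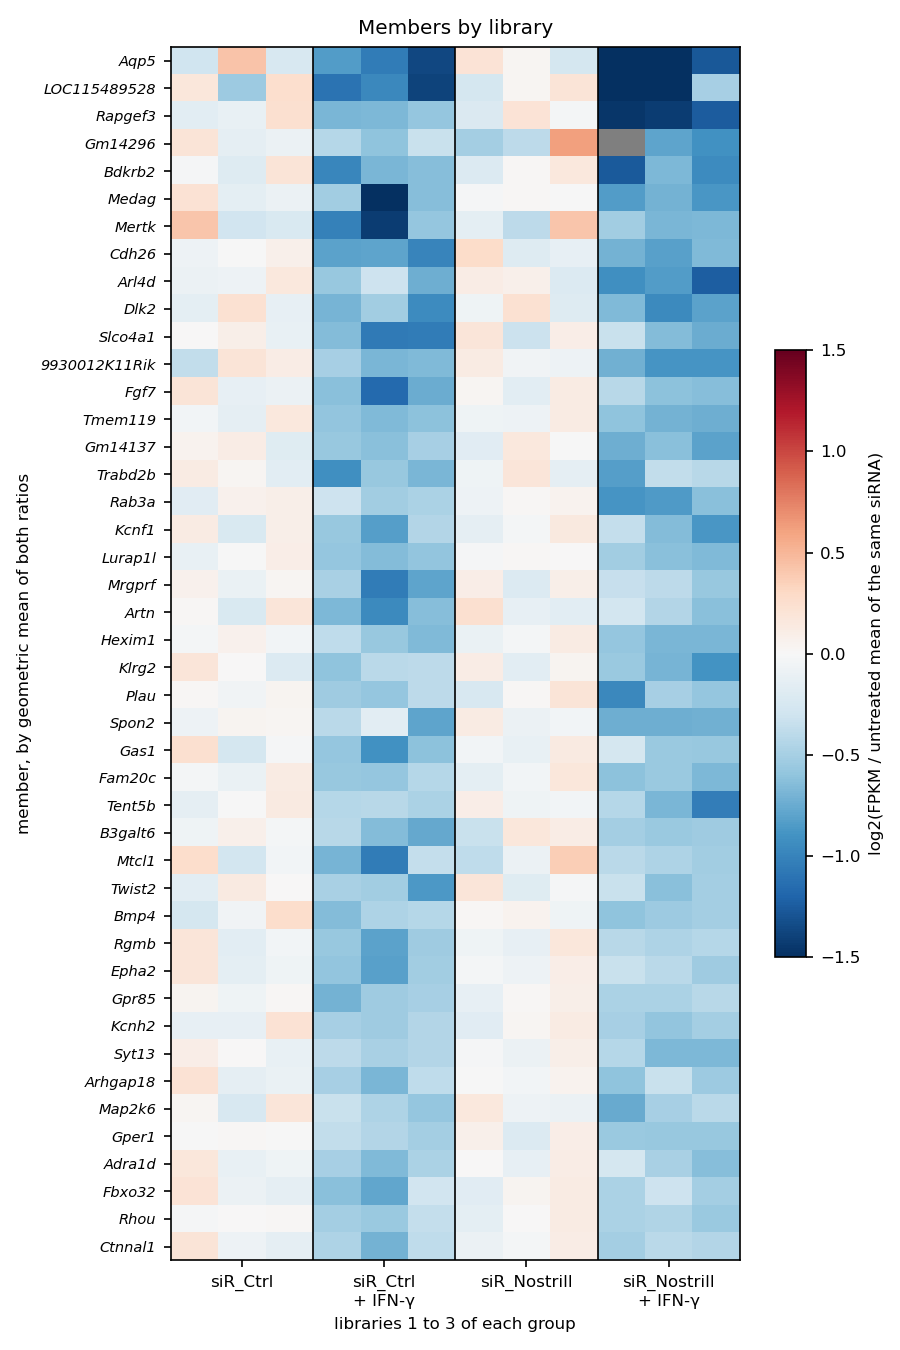
Each row is a member (44 of the 46 are drawn), ordered by the geometric mean of its ratios, and each column is a library; the colour is the log2 of FPKM over the untreated mean with the same siRNA, and the grey cell is a value of 0. As the rule required, the treated columns are blue for every member drawn, apart from the grey cell. Rows run from Aqp5 at the top (ratios of 0.476 and 0.368) to Ctnnal1 at the bottom (0.702 and 0.733).

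**Figure D2:**
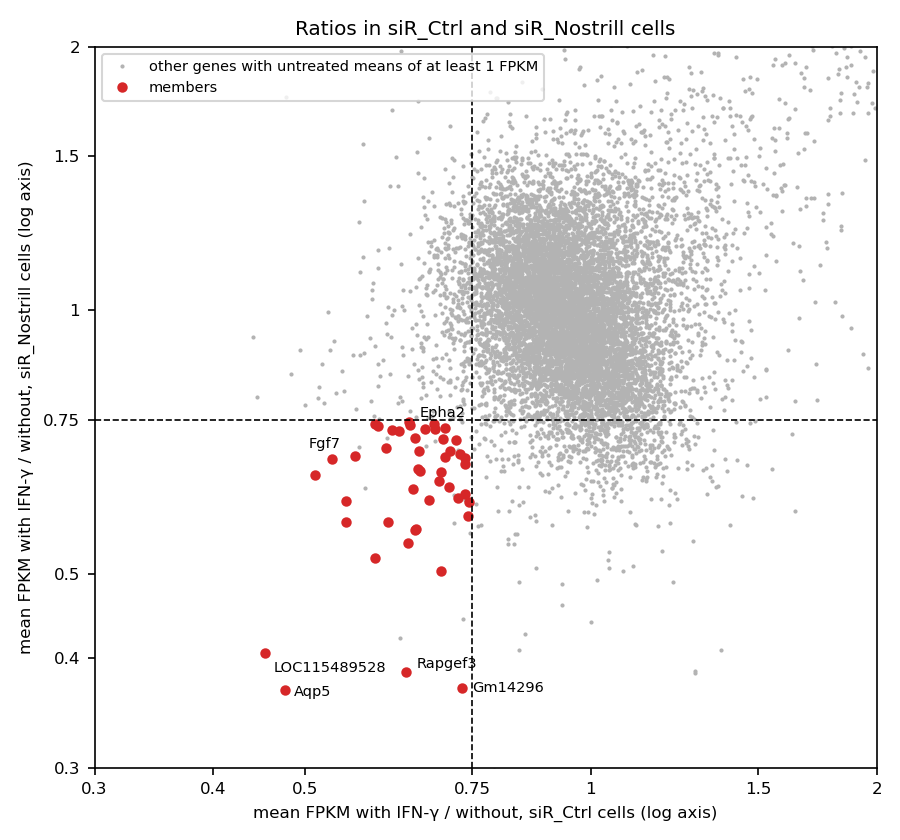
The treated to untreated ratio of mean FPKM in siR_Ctrl cells (horizontal) and siR_Nostrill cells (vertical), on log axes, for genes with untreated means of at least 1 FPKM; 216 of the 10343 lie outside the axes. Members (red) fill the corner under 0.75 on both axes, which the rule cut out, and Aqp5, LOC115489528, Rapgef3 and Gm14296 lie apart from the rest.

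Counts were also fitted in edgeR by quasi-likelihood, and p-values were adjusted after Benjamini and Hochberg over all 11900 genes tested, with a threshold of 0.05. All 46 members passed the filter on low counts. Lower counts with IFN-γ were called for 27 members in siR_Ctrl cells, where 0.748% of all genes tested were called lower, and for 32 in siR_Nostrill cells, where 1.55% were. The same comparison had chosen the members, so nothing is read from these shares. In all, 23 members were called in both, 4 in siR_Ctrl cells alone, 9 in siR_Nostrill cells alone and 10 in neither. Whether a change differed between the siRNAs is a separate test, the interaction given further on. The limit of 0.75 passed through a continuous range. Just inside it lay Rab3a (0.742 in siR_Ctrl cells), Spon2 (0.744 in siR_Ctrl cells) and Epha2 (0.746 in siR_Nostrill cells), and just outside lay Dusp1 (0.752), Afap1l2 (0.754) and Nipsnap1 (0.757).

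Channels, transporters and cell junction genes made up 6 members, of which 4 are described. Aqp5, a water channel of glands and airways, was at 12.8, 21.0 and 13.2 FPKM in siR_Ctrl libraries and at 8.76, 7.56 and 6.06 with IFN-γ. In siR_Nostrill libraries it was at 19.8, 17.5 and 14.3, and with IFN-γ at 5.91, 5.93 and 7.13. The 6 treated values did not overlap the 6 untreated ones, an order the rule required within each siRNA. The treated means were 0.476 and 0.368 of the untreated means. Slco4a1, an organic anion transporter that carries thyroid hormone, was the most abundant of the 4, at 54.9, 57.9 and 50.6 FPKM in siR_Ctrl libraries and 34.8, 26.1 and 26.4 with IFN-γ. In siR_Nostrill libraries it was at 56.7, 40.0 and 53.9, and with IFN-γ at 40.0, 32.1 and 29.9, where the highest treated and the lowest untreated library were 39.99 and 40.03, so that the groups barely separated.

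Kcnf1 and Kcnh2 encode subunits of voltage-gated potassium channels, Kcnf1 a silent subunit and Kcnh2 the ERG channel of cardiac repolarisation. Kcnh2 was at 7.06, 7.06 and 8.90 FPKM in siR_Ctrl and 5.43, 5.29 and 5.64 with IFN-γ, and at 8.47, 9.76 and 10.4 in siR_Nostrill and 6.76, 6.36 and 6.69 with IFN-γ. Kcnf1 was lower in level, with treated means at 0.660 and 0.655 of the untreated means. The ratios of these 6 members spanned 0.476 to 0.711 in siR_Ctrl cells and 0.368 to 0.691 in siR_Nostrill cells.

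The 5 G protein-coupled receptors were Bdkrb2, Adra1d, Gper1, Gpr85 and Mrgprf. Bdkrb2, the constitutive bradykinin receptor, had the lowest ratio of the 5 in siR_Nostrill cells, 0.521, with 0.592 in siR_Ctrl cells, from means of 1.57 ± 0.211 and 1.92 ± 0.246 FPKM. Its libraries were at 1.55, 1.37 and 1.79 without and 0.80, 0.98 and 1.01 with IFN-γ in siR_Ctrl cells. Gper1, a membrane receptor for oestrogen, was the most abundant, with 14.2, 14.4 and 14.2 FPKM in siR_Ctrl and 11.1, 10.5 and 10.1 with IFN-γ. In siR_Nostrill libraries Gper1 was at 16.0, 13.1 and 16.2, and at 10.3, 10.2 and 10.2 with IFN-γ. The treated values were close together, and with each siRNA they lay below the untreated ones, as the rule required. Adra1d, an alpha-1 adrenergic receptor, had ratios of 0.686 and 0.731, Gpr85, a brain-enriched orphan receptor, 0.669 and 0.732, and Mrgprf, a Mas-related orphan receptor, 0.592 and 0.741.

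Receptor kinases, adhesion and other surface proteins made up 9 members. Epha2, a receptor tyrosine kinase for ephrin A ligands, was at 77.7, 61.6 and 65.5 FPKM in siR_Ctrl and 45.3, 38.8 and 47.6 with IFN-γ. In siR_Nostrill it was at 56.1, 54.2 and 61.0, and at 45.2, 43.2 and 39.4 with IFN-γ. All treated libraries were under all untreated ones, an order the rule required within each siRNA. Mertk, a TAM family receptor kinase used in the uptake of dying cells, was at 5.5, 3.39 and 3.52 in siR_Ctrl and 2.05, 1.54 and 2.77 with IFN-γ, a wide spread in which siR_Ctrl library 1 stood highest. In siR_Nostrill cells its ratio was 0.648. Cdh26, a cadherin, was at 3.56, 3.73 and 3.97 FPKM in siR_Ctrl and 2.16, 2.17 and 1.89 with IFN-γ, and its ratio was 0.605 in siR_Nostrill cells.

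Gas1 and Rgmb are co-receptors anchored in the membrane, Gas1 for Hedgehog proteins and Rgmb for bone morphogenetic proteins. Gas1 was at 27.0, 18.9 and 22.5 FPKM in siR_Ctrl and 15.2, 12.1 and 14.8 with IFN-γ, and its ratio was 0.729 in siR_Nostrill cells. Rgmb went from 18.8 ± 2.24 to 12.1 ± 1.20 FPKM (SD, n = 3) and from 18.8 ± 2.01 to 13.9 ± 0.226. Dlk2, a Notch-like membrane protein, was at 14.4, 18.6 and 14.6 FPKM in siR_Ctrl and 9.74, 11.1 and 8.22 with IFN-γ, and at 13.5, 16.6 and 12.5 in siR_Nostrill and 8.94, 7.31 and 8.13 with IFN-γ. Tmem119, a membrane protein of osteoblasts and microglia, had ratios of 0.650 and 0.624, Trabd2b, a protease that inactivates Wnt proteins, 0.608 and 0.696, and Klrg2, a lectin-like protein, 0.725 and 0.611.

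The 6 secreted ligands and enzymes were Fgf7, Bmp4, Artn, Plau, Spon2 and Fam20c. Fgf7, keratinocyte growth factor, which mesenchymal cells make for epithelial cells, was at 34.8, 27.9 and 28.8 FPKM in siR_Ctrl and 19.7, 13.7 and 18.3 with IFN-γ. In siR_Nostrill it was at 15.4, 13.6 and 16.5, and at 11.3, 9.93 and 9.70 with IFN-γ. The siR_Nostrill libraries without IFN-γ thus lay in the range of the siR_Ctrl libraries with it, apart from the lowest, at 13.56, just under 13.65. Plau, the urokinase protease, was at 28.5, 27.1 and 28.9 in siR_Ctrl and 19.5, 18.9 and 21.5 with IFN-γ, and at 23.6, 28.2 and 31.8 in siR_Nostrill and 14.2, 19.8 and 18.6 with IFN-γ. Fam20c, the kinase of secreted phosphoproteins, went from 28.6 ± 2.22 to 19.8 ± 1.14 FPKM and from 27.4 ± 3.05 to 17.9 ± 0.730. Bmp4 had ratios of 0.702 and 0.680, Artn, a GDNF family ligand, 0.596 and 0.738, and Spon2, an extracellular matrix protein, 0.744 and 0.603.

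Of the 5 small GTPases and their regulators, Rapgef3, the cyclic AMP-activated exchange factor Epac1 for Rap, had the lowest ratios of the 5 and was at 5.76, 5.95 and 7.59 FPKM in siR_Ctrl and 4.01, 4.02 and 4.30 with IFN-γ. In siR_Nostrill it was at 7.57, 10.2 and 8.63, and at 3.20, 3.27 and 3.71 with IFN-γ, which put the untreated libraries above and the treated ones below their siR_Ctrl counterparts, apart from 7.57 against 7.59. Its treated mean was 0.639 of the untreated mean in siR_Ctrl and 0.386 in siR_Nostrill cells. Arl4d, a plasma membrane GTPase of the ARF family, was at 3.80, 3.83 and 4.52 in siR_Ctrl and 2.74, 3.27 and 2.43 with IFN-γ, and at 6.12, 5.94 and 4.88 in siR_Nostrill and 2.98, 3.15 and 2.39 with IFN-γ. Rhou, an atypical small GTPase, was the most abundant of the 5, at 16.8, 17.1 and 17.3 in siR_Ctrl and 12.02, 11.6 and 13.3 with IFN-γ, with ratios of 0.721 and 0.711. The ratios were 0.698 and 0.712 for Arhgap18, a GTPase-activating protein, and 0.742 and 0.582 for Rab3a, a GTPase of secretory vesicles. The deposited tables place Rab3a and Fbxo32 on scaffolds outside the assembled chromosomes, while RefSeq has them on chromosomes 8 and 15.

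The other 11 intracellular proteins have varied roles. Twist2, a basic helix-loop-helix repressor of mesenchymal cells and the most abundant member by FPKM, was at 94.0, 115 and 105 in siR_Ctrl and 74.7, 72.7 and 57.5 with IFN-γ. In siR_Nostrill it was at 115, 89.5 and 100.02, and at 80.3, 65.8 and 71.6 with IFN-γ. Hexim1, an inhibitor of the elongation kinase P-TEFb, was at 21.2, 22.7 and 20.9 in siR_Ctrl and 16.7, 14.6 and 13.7 with IFN-γ. Ctnnal1, a catenin-like protein, went from 39.2 ± 4.83 to 27.5 ± 3.24 FPKM and from 32.3 ± 2.23 to 23.7 ± 0.945.

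Lurap1l had ratios of 0.657 and 0.658 from means of 28.9 ± 2.16 and 26.9 ± 0.351 FPKM. Syt13, an atypical synaptotagmin, was at 13.2, 12.4 and 11.4 FPKM in siR_Ctrl and 9.37, 8.77 and 9.13 with IFN-γ, and at 8.73, 8.33 and 9.41 in siR_Nostrill and 6.56, 5.55 and 5.55 with IFN-γ. As for Fgf7, the untreated siR_Nostrill libraries overlapped the treated siR_Ctrl ones. Medag, a protein of fat cell differentiation, was at 1.80, 1.40 and 1.46 in siR_Ctrl and 1.08, 0.49 and 1.0 with IFN-γ, where library 2 stood lowest. The remaining members of this group were Map2k6, the kinase MKK6 that activates p38, Fbxo32, the muscle ubiquitin ligase subunit atrogin-1, Mtcl1, a microtubule crosslinker, Tent5b, a poly(A) polymerase, and B3galt6, a galactosyltransferase of proteoglycan synthesis, with ratios between 0.617 and 0.741 over both siRNAs.

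The last 4 members are little-described gene models, and 2 of them rest on weak data. LOC115489528 had a mean of 9.58 reads per library, the fewest of all members, and its 3 treated siR_Nostrill libraries were at 0.29, 0.39 and 0.95 FPKM. Gm14296, a zinc finger gene in a cluster of near-identical copies whose reads could be split between genes, was at 2.91, 3.14 and 6.36 FPKM in siR_Nostrill and at 0.00, 2.39 and 2.2 with IFN-γ. The value listed at 0 makes the mean uncertain, and edgeR gave a log2 fold change of -1.44 with a standard error of 0.71 there. 9930012K11Rik had ratios of 0.655 and 0.563 and Gm14137 of 0.675 and 0.607.

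**Figure D3:**
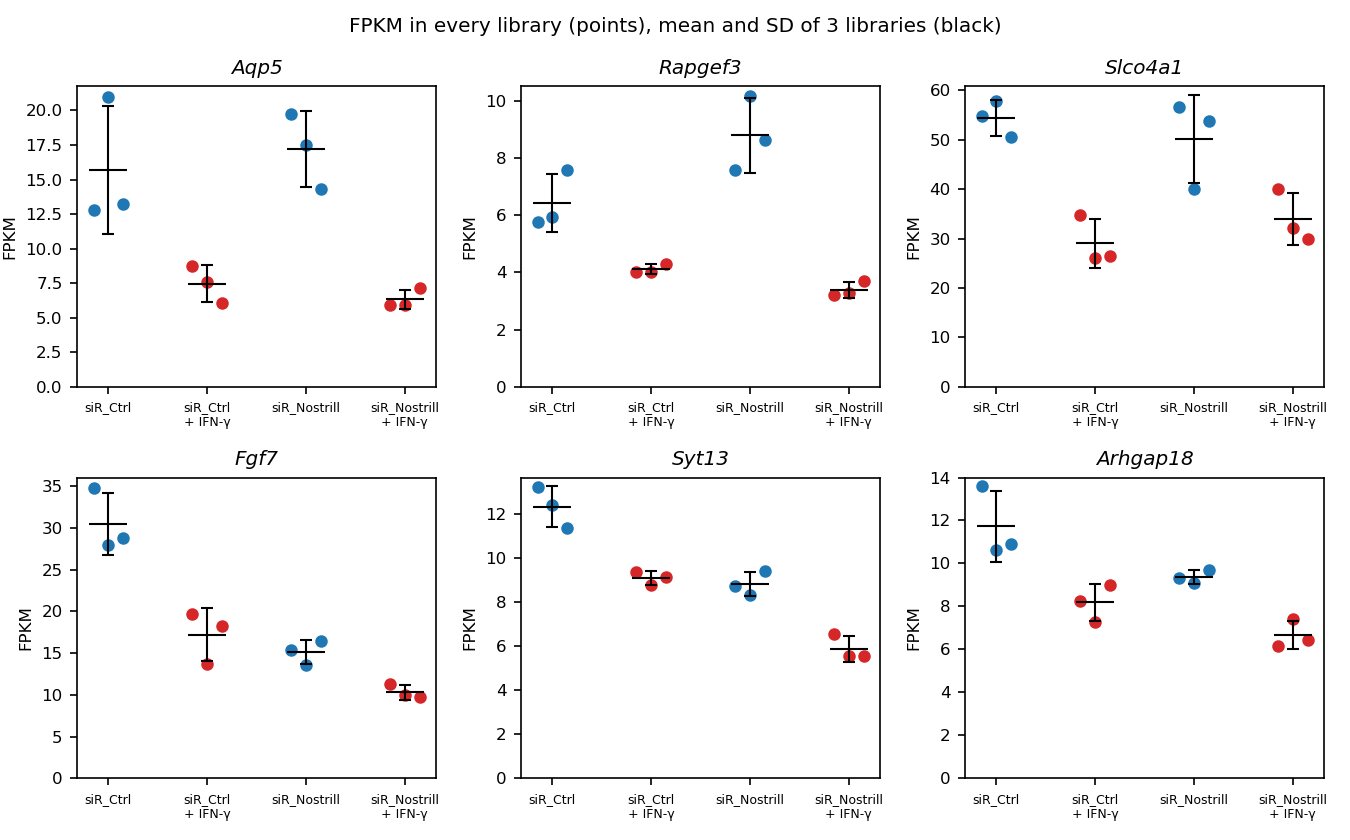
FPKM of 6 members in each library (points, blue without and red with IFN-γ), with the mean and SD of 3 libraries per group in black; the axes start at 0. Aqp5, Rapgef3 and Slco4a1 are split mainly by IFN-γ, while in Fgf7 and Syt13 the siR_Nostrill libraries are also below the siR_Ctrl libraries given the same treatment.

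Differences between the siRNAs did not enter the rule and were tested on all genes with edgeR's quasi-likelihood test. Without IFN-γ, 1 of the 46 members was called, Fgf7, where 0.218% of all genes were called in either direction. With IFN-γ, 2 were called, Fgf7 and Syt13, where 0.429% of all genes were. Averaged over both IFN-γ states, 3 were called, Fgf7, Syt13 and Arhgap18, where 2.16% of all genes were. Each of these calls was toward lower counts in siR_Nostrill cells. With 1 to 3 members called, no more is read from the shares than these names.

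Fgf7 was lower with the siRNA pool by a log2 fold change of -0.98 (SE 0.11, adjusted p = 0.018) without IFN-γ and by -0.79 (SE 0.11, adjusted p = 0.023) with it. The average was -0.89 (SE 0.080, adjusted p = 1.1e-03), with all 3 siR_Nostrill libraries under all 3 siR_Ctrl libraries in either state. Syt13 differed by -0.46 (SE 0.088, adjusted p = 0.079) without and -0.69 (SE 0.089, adjusted p = 0.014) with IFN-γ, on average by -0.57 (SE 0.063, adjusted p = 1.6e-03). Arhgap18, whose libraries were at 13.6, 10.6 and 10.9 FPKM in siR_Ctrl and 9.34, 9.08 and 9.70 in siR_Nostrill, differed by -0.32 on average (SE 0.070, adjusted p = 0.044). The Arhgap18 call was lost with the replicate block (adjusted p = 0.073), with no filter on low counts (adjusted p = 0.062), in limma on log2(FPKM + 1), on log2(FPKM + 0.1) and on log2(FPKM + 1) with all genes (adjusted p of 0.094, 0.092 and 0.12) and when any library but siR_Ctrl+IFNg replicate 2 was left out (adjusted p of 0.060 to 0.11).

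The calls within 1 state were lost when some single libraries were left out, while the averages of Fgf7 and Syt13 passed in every alternative run. The edgeR call of Fgf7 without IFN-γ was lost without siR_Ctrl replicate 1 (adjusted p = 0.057), siR_Nostrill+IFNg replicate 2 (adjusted p = 0.056) or any siR_Nostrill replicate (adjusted p of 0.087 to 0.11). With IFN-γ it was lost without siR_Ctrl+IFNg replicate 1 or 3 or any siR_Nostrill+IFNg replicate (adjusted p of 0.067 to 0.13). The edgeR call of Syt13 with IFN-γ was lost without siR_Ctrl+IFNg replicate 1 or 2 or any siR_Nostrill+IFNg replicate (adjusted p of 0.054 to 0.12).

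Across all members the average difference between siRNAs had a median of -0.05 on the log2 scale, with 25 below and 21 above 0, against a median of -0.01 over all 11900 genes. Without IFN-γ, 22 members were below and 24 above 0, with a median of 0.005 for members and for all genes. With IFN-γ, 34 were below and 12 above 0, with medians of -0.13 for members and -0.003 for all genes. No test was made of these tallies. In order of adjusted p, Ctnnal1 at -0.26 (SE 0.061, adjusted p = 0.052) came next to the called genes. Mrgprf followed at 0.33 (SE 0.087, adjusted p = 0.076). Rhou at -0.20 (SE 0.056) and Kcnh2 at 0.26 (SE 0.075) both had an adjusted p of 0.098. Mtcl1, Tent5b and Kcnf1 lay further below 0 than Ctnnal1, at -0.43, -0.35 and -0.31, with adjusted p of 0.11, 0.12 and 0.12. Aqp5 differed by -0.07 on average and Twist2 by 0.01, with standard errors of 0.17 and 0.11. At an unadjusted p under 0.05 there were 13 members (28.3%) beside 16.5% of all genes. The standard error over members had a median of 0.091.

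**Figure D4:**
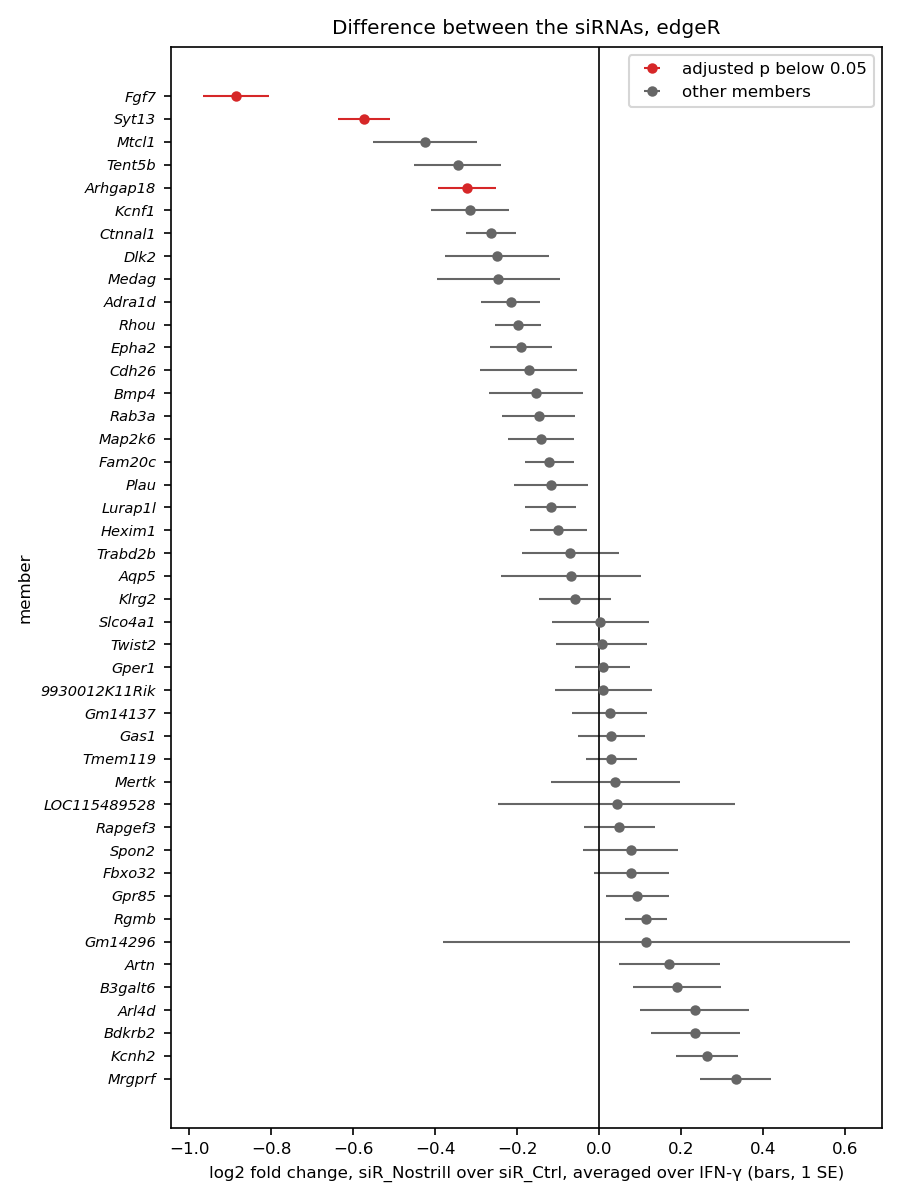
Each point is a member's (44 of 46 drawn) log2 fold change of siR_Nostrill over siR_Ctrl averaged over IFN-γ, with a bar of 1 SE from edgeR; red marks an adjusted p below 0.05. Fgf7 (-0.89), Syt13 (-0.57) and Arhgap18 (-0.32) are red, and most others lie between -0.30 and 0.30.

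The siRNA and IFN-γ interaction asks whether the change with IFN-γ differed between siRNAs. No member was called by edgeR, and neither was any of the 11900 genes (0%); 2 members and 1277 genes had an unadjusted p under 0.05, and DESeq2 called no member either. The rule set a limit on the change with each siRNA, which bounds what this test could find among members. The 2 were Rapgef3 (log2 difference -0.62, SE 0.17, unadjusted p = 0.0045, adjusted p = 0.43) and Rab3a (-0.43, SE 0.18, unadjusted p = 0.033, adjusted p = 0.43), both with the larger fall in siR_Nostrill cells. Over its alternatives the adjusted p of Rapgef3 ran from 0.032, with the length trend removed and a replicate block together, to 0.80. In simulated data the edgeR test recovered 4% of interactions of log2 size 0.58 and 37% of those of log2 size 1.

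The siRNA duplexes and the transcripts of the called members can be set side by side. The sense strands are shown because bases 2 to 8 of the guide strand, the seed, would pair with the 7 bases in capitals, each strand written 5′ to 3′.
Nostrill-1: ccugggaagaaGCAUUAAu
Nostrill-2: ccaccaggaacACACAAAu
Nostrill-3: gccuauaagucGUUCUAAu
In the longest protein-coding GENCODE transcript of each gene, the 7 letters of at least 1 duplex occurred in 17 of 45 members (37.8%) and in 40.7% of the 11616 tested genes with a transcript. Fgf7 held 2 occurrences for Nostrill-1, at bases 1233 and 1929 of 2672, and 2 for Nostrill-2, at bases 1259 and 1517. Arhgap18 held 1 for Nostrill-1, at base 2821 of 3651, and Syt13 held none. These stretches are shown with the matching letters in capitals.
Fgf7, base 1233: aaaagactGCATTAAagaaagat
Fgf7, base 1929: tgattacaGCATTAAactctact
Fgf7, base 1259: aagaatatACACAAAaatcagat
Fgf7, base 1517: caagccccACACAAActacagac
Arhgap18, base 2821: tcaccaaaGCATTAAatgtttaa
Another 15 members carried such letters and were not called between the siRNAs in the edgeR fit of the counts as deposited, although Ctnnal1, Rhou and Mtcl1 among them were called with the length trend removed. Whether any of these matches is a site, and their part in the differences, was not tested.

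Fold changes in these libraries also moved with transcript length. The effective length, taken from the deposited counts and FPKM, correlated across 10729 genes with the log2 fold change of IFN-γ with a Spearman coefficient of -0.46 in siR_Ctrl cells and 0.53 in siR_Nostrill cells, and with that of the siRNA at -0.70 without and 0.29 with IFN-γ. Genes share libraries here and are not independent, so no p is given. The members had a median effective length of 2706 bases, against 2626 for genes past the floor, and ranged from 1099 to 7016. With the trend on length removed, the members' log2 fold changes with IFN-γ reached at most -0.30 and -0.29, which the selection of the members on these libraries largely fixed, since removal of the trend shifted no member by more than 0.25. Over all genes tested, 50.9% and 51.1% were below 0 in that fit. When the rule itself was applied to normalised counts with the trend removed, 56 genes met it, of which 29 were among the 46. The median moved from -0.54 to -0.49 in siR_Ctrl cells and was -0.62 before and after in siR_Nostrill cells. Between siRNAs, 13.6% of all genes were then called on average instead of 2.16%, and 10 members instead of 3: the same 3, with Tent5b, Mtcl1, Dlk2, Ctnnal1, Rhou and Epha2 lower and Kcnh2 higher in siR_Nostrill cells, from -0.37 (Tent5b) to 0.27 (Kcnh2).

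**Figure D5:**
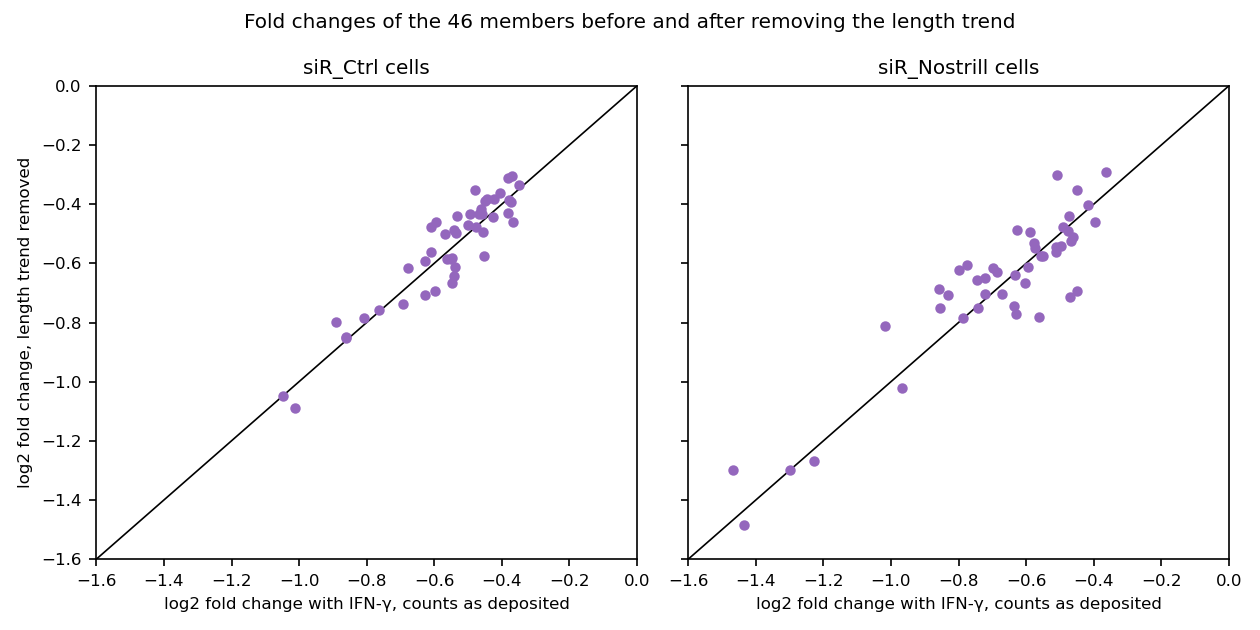
Log2 fold change with IFN-γ of each of the 46 members from the counts as deposited (horizontal) and after the trend on length was removed (vertical), in siR_Ctrl cells (left) and siR_Nostrill cells (right); the line marks equal values. The members were chosen for values below 0 on the horizontal axis, and single members shift by -0.12 to 0.13 on the left and by -0.25 to 0.21 on the right.

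Annotation and position, which the rule did not use, are given here as counts with no test, and no single term or chromosome held all members. By the gene ontology terms in the deposited tables, 25 of 46 were annotated to the plasma membrane (54.3%, against 18.6% of the 10343 genes past the floor), 6 to the extracellular region (13.0% against 4.99%) and 8 to the nucleus (17.4% against 43.3%). The pathway term for G protein-coupled receptor signalling was given to 5 (10.9% against 1.11%), cell adhesion to 5 (10.9% against 2.01%) and cell cycle to 2 (4.35% against 5.48%). By position, 9 members were on chromosome 2 and 9 on chromosome 4 (19.6% each, against 8.06% and 6.43% of genes past the floor). Fam20c and Gper1 on chromosome 5 lay within 1 Mb of each other, 613086 bases apart with 7 genes past the floor between them.

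Other genes of pathways named above were followed in lists whose choice came with earlier results of these data known. Of 36 tested genes of BMP and TGF-beta signalling, to which Bmp4 belongs, 2 were called lower in siR_Ctrl cells (Bmp2 at -1.31 and Tgfb2 at -0.95 on the log2 scale) and 0 in siR_Nostrill cells, while Fst, an activin inhibitor, was called higher with either siRNA. Bmp4, with log2 fold changes of -0.46 and -0.59, was not called with either, and the difference between the siRNAs in these counts was not tested. Of 31 genes of the EGF, FGF and ERK feedback list, which holds Fgf7, 4 fell in siR_Ctrl cells (Fgf7, Egr3, Spry1 and Spry4) and 3 in siR_Nostrill cells (Fgf7, Spry1 and Areg), and 3 and 5 rose. Spry1, a feedback inhibitor of receptor kinases, fell by 1.07 and 1.73 on the log2 scale. The median log2 fold changes were -0.18 and 0.09 for the BMP list and -0.03 and 0.05 for the ERK list, beside -0.01 and 0.00 over all genes.

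Over all genes tested, 4.71% were called higher with IFN-γ in siR_Ctrl cells and 5.24% in siR_Nostrill cells, beside the shares called lower given above, and no list is compared with them by a test. No member stood in the lists of Wnt, Notch, Hippo, cell cycle or extracellular matrix genes. Of 32 tested Wnt genes 1 fell and 2 rose in siR_Ctrl cells, and 2 fell and 4 rose in siR_Nostrill cells, of 32 cell cycle genes none passed the test in either direction, and of 35 matrix genes 1 fell, Itgb3, and 1 rose, Timp3, both in siR_Nostrill cells. Of 25 Hippo and YAP target genes 4 rose and 0 fell with each siRNA, and of 19 Notch genes 2 and 1 rose and 0 fell. Of 30 immediate-early and Krüppel-like factors 7 rose in siR_Ctrl and 5 in siR_Nostrill cells and 0 fell. Of 25 cholesterol synthesis genes 5 rose in siR_Ctrl cells and 0 in siR_Nostrill cells, and the difference was not tested. Of 16 endothelin and vascular growth factor genes 1 fell, Angptl4, in siR_Ctrl cells, and 2 and 1 rose. All 18 reference genes induced by IFN-γ rose with either siRNA, with median log2 fold changes of 5.03 and 4.80.

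Close relatives of the members were looked up by symbol, a choice made after the members were known. Among 6 voltage-gated potassium channel subunits, Kcnf1 and Kcnh2 were the 2 called, with either siRNA. Among 15 Eph receptors and ephrins, Epha2 was called lower with either siRNA and Ephb3 in siR_Nostrill cells, whereas Ephb2 was called higher with either and Efna5 in siR_Nostrill cells. Of 5 Rap exchange factors Rapgef3 alone was called, lower with either siRNA. Among 6 synaptotagmins Syt13 was called lower with either siRNA and Syt12 higher in siR_Ctrl cells.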

How the data were processed

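Total RNA was isolated from IEC4.1 cells, and 12 libraries (4 groups of 3) of oligo(dT)-enriched mRNA were sequenced on the DNBSEQ platform. The authors aligned reads with HISAT2 and Bowtie2 to GRCm38.p6 (the counting tool is not named by the labels, headers or methods) and deposited, for each library, expected counts per gene together with FPKM and TPM values for 15002 genes. Totals were 17824306 to 19093204 reads per library, and 0 columns came from other samples. The study's methods name biological triplicates, but the labels do not say that replicates were separate cultures, so p-values measure the spread between these libraries. Members were selected on FPKM, and the members and gene lists were chosen with earlier results of these data known.

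Expected counts were rounded to whole numbers. edgeR 4.0.16 (TMM, filterByExpr, quasi-likelihood, 4 groups in 1 fit, Benjamini-Hochberg) was the test. In simulated data without a length trend, it recovered 26% to 36% of changes of log2 size 0.58 within 1 siRNA or 1 IFN-γ state. It recovered 66% of those in the siRNA average and 4% in the interaction. At log2 size 1 these were 74% to 84%, 97% and 37%. Of all calls, 2.78% to 7.83% were false. Alternatives used DESeq2 1.42.0, limma 3.58.1 on log2(FPKM + 1) or log2(FPKM + 0.1), other filters on low counts, only the groups compared, a replicate block, a lowess on effective length per library (span 0.3), and leaving out each library. Of the 46 members, 44 were named, since 2 are not reported here by name, with the 3 genes nearest each side of the limit and Irf1. List genes are given as counts, and those named beside a count were chosen after their values were seen. The deposited strand of genes was not used. Promoter and gene positions are from RefSeq (GRCm38.p6), transcripts from GENCODE release M21 and siRNA sequences from the study's supplement.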

Additional observations from a re-analysis of the deposited data

How the results depend on the processing

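The number of members, 46, was 30 on the TPM scale, of which 23 were shared with the 46, 50 on TMM-normalized CPM, with 31 shared, and 56 on such CPM with the length trend removed, with 29 shared. It was 22 with a ratio limit of 0.70 and 83 with 0.80, and 38 to 62 when a library was left out. Of members called lower with IFN-γ, 27 in siR_Ctrl cells (89 of 11900 genes called lower) became 4 with only the groups compared in the fit (7 of 11700 genes). Leaving out a library gave 13 to 23, with 13 without siR_Ctrl+IFNg replicate 1 (48 of 12027 genes). There were 17 without siR_Ctrl replicate 2 (54 of 12019 genes) or siR_Ctrl+IFNg replicate 3 (57 of 12025 genes). The 32 in siR_Nostrill cells (184 of 11900 genes called lower) became 40 with only the groups compared in the fit (832 of 11714 genes). Without a library they became 19 to 38, with 19 without siR_Nostrill+IFNg replicate 2 (55 of 12021 genes). The 38 came without siR_Ctrl replicate 1 (326 of 12018 genes). With the length trend removed, 38 were called lower in siR_Ctrl and 42 in siR_Nostrill cells (351 and 911 of 11900 genes).

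Members that differed between siRNAs without IFN-γ were 1 in the reported fit, 2 with the DESeq2 Wald test (257 of 15002 genes called), 2 with the length trend removed (3.44% of all genes called), 4 with the length trend removed and a replicate block (4.66%), 0 with only the groups compared (0 genes) and 0 to 1 without a library (0% to 0.308%). With IFN-γ the reported 2 became 6, 9, 10 and 0 in that order (601 of 15002 genes, 13.0%, 15.9% and 0 genes called), 1 in limma on log2(FPKM + 1) with all genes (118 of 15002 genes) and 0 to 2 without a library (0% to 0.599%). Averaged, the reported 3 became 9, 10 and 12 in the first of those settings (782 of 15002 genes, 13.6% and 15.8% called), and 2 to 4 without a library (0.69% to 2.11%). The interaction called 1 member, Rapgef3, with the length trend removed and a replicate block (2.07% of all genes called), and 0 to 0 without a library (0%). The causes of these shifts were not tested. The direction of the siRNA difference of Fgf7, Syt13 and Arhgap18 was negative in every alternative run.

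Whether replicate numbers pair the samples is not given by the labels. Same-numbered libraries correlated at -0.50 to 0.72 over 18 comparisons of deviations from the group means. Differently numbered libraries ranged as widely, from -0.81 to 0.77, so these correlations cannot decide whether the samples are paired. With a replicate block, 24 members were called lower in siR_Ctrl cells and 33 in siR_Nostrill cells (89 and 253 of 11900 genes called lower). The siRNA comparisons and the interaction called 1, 2, 2 and 0 members (18, 32, 183 and 0 of 11900 genes). Depth limits the least abundant members, such as LOC115489528 with 9.58 reads per library.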
